A study of Mus musculus with 30 samples.

Results

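The cytosolic ribosomal protein genes were taken here as all genes whose platform symbol reads Rpl or Rps followed by a digit, or Rplp0 to Rplp2, on a probe set annotated with exactly 1 symbol. On the mouse array used, this rule found 116 probe sets for 56 genes, of 18193 genes with a 1-symbol probe set and 45101 probe sets in all, and the brightest matching probe set over all arrays stood for its gene. Of the 56, 42 were ribosomal protein genes. A further 7 were paralogs or copies: Rps4l, Rpl3l, Rpl22l1, Rpl39l, Rps27l, Rpl7l1 and the pseudogene Rps15a-ps6. The other 7 carry a matching symbol but encode no ribosomal protein: the kinase genes Rps6ka3, Rps6ka5, Rps6ka6, Rps6kb2, Rps6kc1 and Rps6kl1, and Rps19bp1, which encodes a protein that binds Rps19. The label therefore held for 42 of the 56 genes, and the counts below keep the classes apart.

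The data were 30 Affymetrix Mouse Genome 430 2.0 arrays of RNA from the liver, the kidney and the brain of 10 mice, with 1 array per tissue and mouse. All 10 mice were male, of genotype Avy/a and sampled at day 22, and there was no group without the Avy allele. Avy, the viable yellow allele of agouti, carries a retrotransposon whose activity differs between genetically similar animals, and the animals' coats run from yellow to a near wild-type brown called pseudoagouti. There were 2 mice, numbered 1 and 2, in each of 5 coat classes, which run from yellow over slightly mottled, mottled and heavily mottled to pseudoagouti. Per the labels, the allele arose in the C3H/HeJ strain and the colony had been bred by sibling mating, with heterozygosity for Avy forced, for more than 220 generations. The labels do not say what the mouse number stands for.

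The ribosome is built from a small (40S) and a large (60S) subunit, and the proteins of each, named Rps and Rpl, are made in matched amounts and assembled with ribosomal RNA in the nucleolus. Their mRNAs are among the most abundant in most cells, and they begin with a terminal oligopyrimidine tract through which the mTOR pathway controls their translation. A few proteins have paralogs that can take their place in the ribosome, and some paralogs are made mainly in a single tissue, such as Rpl3l in striated muscle and Rpl39l in testis.

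Promoter sequences are given for a few genes on which the results below turn. Rps7, Rps3a1 and Rpl38 are some of the genes that tracked the rest of the family closely, and Rps27 with Rps27l, Rpl22 with Rpl22l1, and Rps4x are the parent or paralog genes of the tissue and mouse differences. Each line runs from 100 bases before to 20 bases after the annotated start, 5′ to 3′ on the gene's strand, in the GRCm38.p6 coordinates of RefSeq. Capitals mark a match on either strand to the ETS-type motif CCGGAAG, to the YY1 motif AAGATGGC or to the TATA motif TATAAA. Where matches on the 2 strands overlap, as TTTATA and TATAAA do in Rpl22l1, the whole run is in capitals. For Rps27l and Rpl22 the first of 2 listed starts is shown.
Rps7, chr12:28635934-28636053, minus strand: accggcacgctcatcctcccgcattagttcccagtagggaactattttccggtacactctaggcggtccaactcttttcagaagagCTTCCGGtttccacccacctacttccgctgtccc
Rps3a1, chr3:86142649-86142768, minus strand: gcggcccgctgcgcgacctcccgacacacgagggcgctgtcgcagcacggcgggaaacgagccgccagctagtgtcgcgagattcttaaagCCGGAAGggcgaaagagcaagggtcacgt
Rpl38, chr11:114668480-114668599, plus strand: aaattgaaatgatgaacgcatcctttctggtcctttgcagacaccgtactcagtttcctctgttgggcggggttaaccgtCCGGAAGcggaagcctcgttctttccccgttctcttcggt
Rps27, chr3:90213629-90213748, minus strand: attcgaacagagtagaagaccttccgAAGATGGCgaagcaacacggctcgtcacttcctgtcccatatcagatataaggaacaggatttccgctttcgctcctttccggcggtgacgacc
Rps27l, chr9:66945986-66946105, plus strand: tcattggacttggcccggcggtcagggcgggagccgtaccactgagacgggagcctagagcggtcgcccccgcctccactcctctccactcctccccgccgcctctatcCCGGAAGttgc
Rpl22, chr4:152325626-152325745, plus strand: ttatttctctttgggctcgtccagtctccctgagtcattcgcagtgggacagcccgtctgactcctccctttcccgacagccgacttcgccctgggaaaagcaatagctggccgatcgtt
Rpl22l1, chr3:28805408-28805527, plus strand: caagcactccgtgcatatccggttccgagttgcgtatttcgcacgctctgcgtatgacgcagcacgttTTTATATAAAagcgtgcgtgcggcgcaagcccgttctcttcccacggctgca
Rps4x, chrX:102189372-102189491, minus strand: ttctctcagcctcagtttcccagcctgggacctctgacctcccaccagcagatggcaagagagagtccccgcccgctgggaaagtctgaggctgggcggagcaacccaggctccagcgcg

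Of the 56 genes, 47 had a promoter in the RefSeq table, including 37 of the 42 ribosomal protein genes with 43 starts. The ETS-type motif lay in 12 of the 43 ribosomal protein windows (27.9%), each of a different gene, and in 1897 of all 32851 windows (5.77%). The YY1 motif lay in 1 ribosomal protein window (2.33%), that of Rps27, against 0.892% of all windows. The TATA motif also lay in 1 (2.33%), that of Rpl39, against 6.1% of all. Rps7, Rps3a1, Rpl38 and Rps27l each held the ETS-type motif, Rpl22l1 held the TATA motif, and the windows shown for Rpl22 and Rps4x held none of these 3 letter strings. The windows of Rps26, Rpl27, Rpl7a and Rps28, also among the closest trackers of the family but not printed, held none of them either. Rpl22 and Rps4x were close trackers too, so the motif did not mark these genes in general.

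The values are MAS5 signals, a linear brightness scaled by the authors so that the trimmed mean of every array was 500. The ribosomal protein probe sets were among the brightest on the arrays. The 8 strongest by mean signal over the 30 arrays were Rps29 (26103), Rpl38 (20234), Rpl13a (19480), Rpl41 (19384), Rps28 (18732), Rps2 (18319), Rps18 (18120) and Rpl7a (17527), where Rpl38 is known for its part in patterning the axial skeleton. Of the 100 probe sets with the highest means, 14 belonged to this family, and of the 500 highest, 32. Signals of different probe sets also differ through their probes, so these ranks are those of probe sets and not of mRNAs.

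A clear gap split the family. In 33 of the 42 ribosomal protein genes the mean signal was at least 5000 (lowest 7204, for Rps19), and in 9 it was under that, a limit chosen after the values were seen. These 9 were Rpl12, Rpl14, Rpl27a, Rpl37, Rpl39, Rps16, Rps25, Rps27 and Rps6, and the highest of their means was 3095, for Rpl37. Each of the 9 also had at least 1 brighter probe set that shares its symbol with another gene, with a mean of 8770 to 20646, which the 1-symbol rule leaves out. Their values below are therefore those of a dimmer probe set and are given apart. The 5 weakest of all 56 genes were Rps16 (2.49), Rps15a-ps6 (25.3), Rpl39l (31.4), Rpl3l (32.1) and Rpl14 (179).

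**Figure D1:**
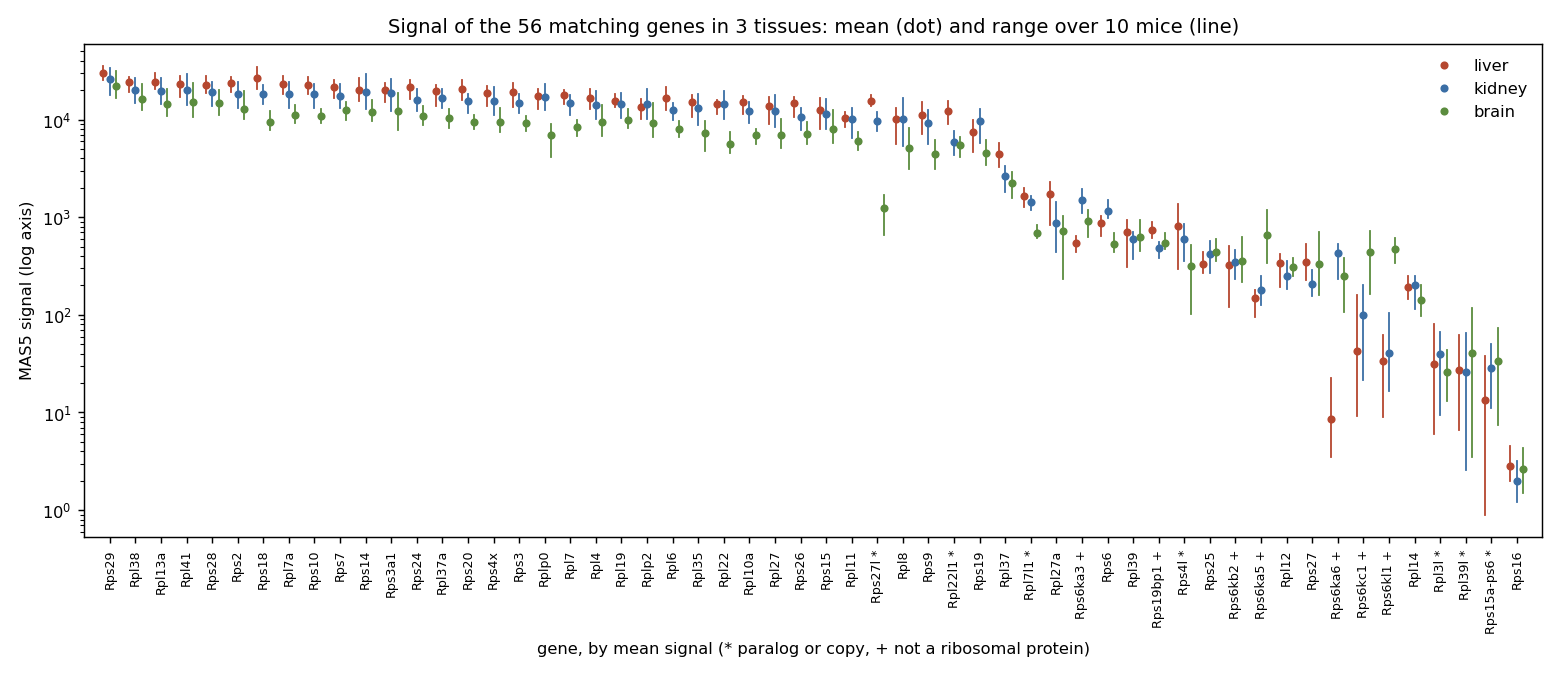
Mean MAS5 signal (dots) and range over 10 mice (lines) of the 56 genes in liver, kidney and brain, on a log axis and ordered by mean signal; an asterisk marks paralogs or copies and a plus sign genes that encode no ribosomal protein. Most ribosomal proteins sit above a signal of 5000 with brain lowest, Rps27l drops in brain to a mean of 1248, and Rps6ka6 drops in liver to 8.66.

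Not all 56 could be tested. A probe set entered the tests if the highest of its 3 tissue means reached a signal of 242, the median of that quantity, and 51 did: 40 ribosomal proteins (not Rpl14 and Rps16), 4 paralogs (Rps4l, Rpl22l1, Rps27l and Rpl7l1) and all 7 genes of the third class. Rpl3l, Rpl39l and Rps15a-ps6 did not reach it in any tissue. Differences are given on the log2(signal + 16) scale with their standard error (SE), where 1 is a doubling of the offset signal, and adjusted p-values are from limma with Benjamini-Hochberg adjustment over all 22519 tested probe sets.

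In the signals as deposited, most ribosomal proteins were highest in liver and lowest in brain. Of the 33 brighter genes, 30 had their highest mean in liver and all 33 their lowest in brain, and in 30 of them liver was above brain in each of the 10 mice. Rps18, a protein of the small subunit's head, spanned the widest range between liver and brain among the 40. Its lowest, median and highest signals were 20757, 26075 and 34641 in liver, 14477, 18226 and 22314 in kidney, and 7756, 9174 and 12357 in brain. Liver and kidney overlapped, and every brain array lay below every kidney array. The liver minus brain difference of Rps18 was 1.49 ± 0.094 (SE, 10 mice; adjusted p = 9.15e-14). Rps29, the strongest member, differed least among the brighter genes, with a mean of 30211 ± 2980 in liver, 25930 ± 6334 in kidney and 22167 ± 5413 in brain (SD, n = 10) and a liver minus brain difference of 0.48 ± 0.11 (adjusted p = 0.000344).

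Counted over the 40 tested ribosomal proteins, 36 were higher in liver than in brain at an adjusted p under 0.05, while 38.1% of all tested probe sets were, and 1 was lower, against 46.4% of all. The exception was Rps25, one of the dimmer probe sets. With a log2 difference of at least 1 in addition, 15 of 40 were higher and 0 lower, against 20.4% and 30.2% of all. The median difference was 0.93, a 1.90-fold ratio, and over all tested probe sets it was -0.15. In whole tissue, fewer cells of a type and less RNA per cell cannot be told apart.

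Between kidney and brain, 33 of 40 were higher in kidney (40.9% of all probe sets) and 2 lower (38.6%), with a median of 0.64 against 0.03 over all. The 5 with a log2 difference of at least 1 were Rpl22, Rplp0, Rps19, Rps6 and Rps9, against 20.7% of all higher and 21.9% lower by that much. Between liver and kidney, 25 of 40 were higher in liver (28.5% of all) and 3 lower (42.4%), with a median of 0.28, a 1.22-fold ratio, against -0.13 over all. Only Rpl27a passed a log2 difference of 1 in that comparison, where 9.85% of all probe sets were higher and 18.6% lower by as much, and without yellow mouse 1, heavily mottled mouse 1 or pseudoagouti mouse 1 in turn no ribosomal protein did.

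These tissue counts depend on how arrays are scaled to each other. When every array was given the same distribution of values (quantile normalisation over the 30 arrays), liver exceeded kidney for 5 ribosomal proteins and kidney exceeded liver for 25, and the median turned to -0.17, while the median over all probe sets became -0.02. The liver minus brain median fell to 0.26 with 27 higher and 4 lower. The kidney minus brain median fell to 0.34 with 32 higher and 0 lower. After quantile normalisation, liver exceeded kidney for 34.1% of all probe sets, and kidney exceeded liver for 37.2%. Liver exceeded brain for 45.5% and brain exceeded liver for 39.9%. Kidney exceeded brain for 44.3% and brain exceeded kidney for 35.4%. The direction of the family's liver minus kidney median thus depended on the scaling. In the signals as deposited and after quantile normalisation alike, 32 or more of the 40 were higher in kidney than in brain. With each array centred on its median, the liver minus brain median was 1.27 and no ribosomal protein was lower in liver than in either other tissue.

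Markers of blood and immune cells were also lower in brain. Both tested blood and erythroid genes of 3 on the array were higher in liver and in kidney than in brain, and the list's mean signal ran from 788 to 3914 over the liver arrays, from 636 to 1791 over those of kidney and from 164 to 442 over those of brain. All 3 tested lymphoid and myeloid genes of 5 on the array were also higher in both than in brain, at 498 to 770, 898 to 1542 and 139 to 264. Between liver and kidney, Slc4a1 and Cd74 were higher in kidney and Alas2 in liver. The part of blood and immune cells in the ribosomal protein differences was not tested. The 6 marker genes of each tissue were highest in the tissue of that label.

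**Figure D2:**
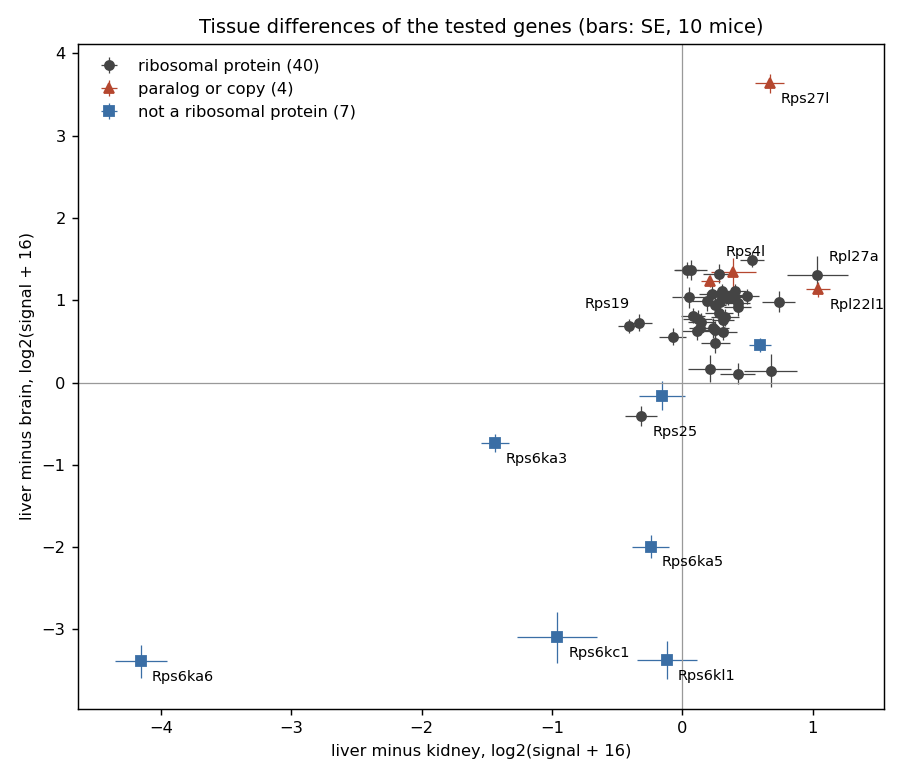
Difference between liver and kidney (horizontal axis) and between liver and brain (vertical axis) of the 51 tested genes, in log2(signal + 16) with the SE over 10 mice as bars. The 40 ribosomal proteins (circles) cluster at a liver minus brain value near 0.93, with Rps25 below 0; the paralog Rps27l stands above them at 3.64, and the kinase genes (squares) reach -4.15 for Rps6ka6 in liver minus kidney.

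Some ribosomal proteins departed from the family's tissue order. In the signals as deposited, Rplp0 and Rpl22 differed by less than their SE between liver and kidney and dropped in brain. This was not particular to these genes, since 11 of the 33 brighter genes had no call between liver and kidney. Liver minus kidney was also 0.05 for Rpl8, 0.08 for Rpl11 and -0.07 for Rplp2. After quantile normalisation it was -0.39 for Rplp0 and for Rpl22. Rplp0, the scaffold of the stalk that recruits elongation factors, ranged over 12920 to 20441 in liver (median 17894), 12416 to 23341 in kidney (median 14766) and 4179 to 9100 in brain (median 6520). The brain arrays lay below all others, and liver and kidney overlapped. Kidney minus brain was 1.30 ± 0.12 for Rplp0 (adjusted p = 3.41e-10) and liver minus kidney 0.07 ± 0.12 (adjusted p = 0.635). Rplp2, another stalk protein, had means of 13333, 14351 and 9297 in liver, kidney and brain.

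Rpl22 is a large-subunit protein that in mice lowers the mRNA of its paralog Rpl22l1. Its signal was 11374 to 15992 in liver (median 14998), 10209 to 19591 in kidney (median 12626) and 4525 to 7541 in brain (median 5218), again with brain apart and the other tissues overlapping. Liver minus brain was 1.37 ± 0.097 (adjusted p = 1.17e-12). The other probe sets of Rpl22 disagreed: one gave 1.19 and the other -0.54 for liver minus brain, so the direction for this gene depends on the probe set.

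Rps19, the gene most often mutated in Diamond-Blackfan anaemia, was highest in kidney. It ranged over 4634 to 9860 in liver (median 7684), 5805 to 12730 in kidney (median 9667) and 3383 to 6212 in brain (median 4456), so the 3 tissues overlapped as groups. Within mice, liver was above kidney in 1 of 10, and the difference was -0.33 ± 0.10 (adjusted p = 0.00621). It was -0.62 after quantile normalisation, but -0.08 with each array centred on its median (adjusted p = 0.536), and its adjusted p was 0.052 without the mouse block. Kidney minus brain for Rps19 was 1.06 ± 0.10 (adjusted p = 8.71e-10).

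The dimmer probe sets gave most of the remaining exceptions. Rps6, the small-subunit protein that S6 kinases phosphorylate, had means of 868 in liver, 1156 in kidney and 535 in brain, and was below kidney in the liver of all 10 mice (-0.41 ± 0.085, adjusted p = 0.000161). Rps25 had means of 331, 419 and 444 in liver, kidney and brain, and its liver minus brain difference of -0.41 (adjusted p = 0.00413) was -0.05 after quantile normalisation and -0.07 with centred arrays, neither of which passed. Rpl27a had means of 1723, 864 and 725, and Rpl37 was 0.74 ± 0.13 higher in liver than in kidney (adjusted p = 1.42e-05).

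Rps27 and Rpl12 were the 2 ribosomal proteins lower in kidney than in brain. Rps27 had means of 346 in liver, 207 in kidney and 335 in brain, with kidney minus brain at -0.53 ± 0.20 (adjusted p = 0.0194), and Rpl12 had means of 338, 247 and 308, with -0.31 ± 0.13 (adjusted p = 0.0336). Both calls were lost without mottled mouse 1 (adjusted p 0.0559 for Rps27 and 0.0596 for Rpl12) or heavily mottled mouse 1 (0.0655 and 0.108). The call of Rpl12 was also lost without pseudoagouti mouse 1 (0.0642), mottled mouse 2 (0.0805) or heavily mottled mouse 2 (0.0679).

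In the signals as deposited, the largest liver minus brain and kidney minus brain differences of the 51 genes above 0 were those of Rps27l, and the largest liver minus kidney difference above 0 was that of Rpl22l1. Rps27l, a paralog of Rps27 and a target of p53, had signals of 13822 to 17751 in liver (median 15089), 7563 to 11852 in kidney (median 9277) and 654 to 1693 in brain (median 1233). No array of a tissue overlapped with another tissue. Liver minus brain was 3.64 ± 0.11, a 12.4-fold ratio (adjusted p = 3.23e-20), kidney minus brain 2.96 ± 0.11 (adjusted p = 3.47e-18) and liver minus kidney 0.67 ± 0.11 (adjusted p = 8.93e-06). Its other 2 probe sets gave 3.71 and 3.85 for liver minus brain, and after quantile normalisation the chosen one gave 3.31.

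Rpl22l1, the paralog of Rpl22, ranged over 9063 to 15331 in liver (median 12152), 4375 to 7673 in kidney (median 5658) and 4156 to 6560 in brain (median 5562). Every liver array lay above all kidney and brain arrays, and the latter overlapped. Liver minus kidney was 1.04 ± 0.092 (adjusted p = 2.15e-10) and kidney minus brain 0.09 ± 0.092 (adjusted p = 0.371). For Rpl22 itself, liver minus kidney was 0.03 ± 0.097 (adjusted p = 0.764), and the difference between both genes was not tested. This value for Rpl22 depended on probe set and scaling. Its other probe sets gave -0.87 and -0.27, and the chosen one gave -0.39 after quantile normalisation (adjusted p = 5.51e-07). After quantile normalisation Rpl22l1 stayed higher in liver than in kidney (0.65, adjusted p = 1.91e-07), while the median of the ribosomal proteins turned to -0.17. Relative to the ribosomal protein median of each array, a scaling chosen after the data were seen, its liver minus brain difference was 0.12 (adjusted p = 0.142).

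Rpl7l1, which takes part in making the large subunit, had means of 1657 ± 244 in liver, 1418 ± 162 in kidney and 690 ± 76.3 in brain (SD, n = 10), and liver minus brain was 1.24 ± 0.072 (adjusted p = 1.84e-14). Rps4l, an autosomal paralog of the X-linked Rps4x, was 1.34 ± 0.17 higher in liver than in brain (adjusted p = 7.96e-08) and is described with the mice below. All 4 tested paralogs were higher in liver than in kidney, against 28.5% of all probe sets. After quantile normalisation all 4 still were, against 34.1% of all. There Rps27l gave 0.25 (adjusted p = 0.0177), Rps4l 0.56 (0.00993) and Rpl7l1 0.28 (0.00101).

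The 7 genes that share only the symbol did not move as a group. Rps6ka6, which encodes the RSK4 kinase, was at 3.5 to 22.6 in liver (median 6.55), 231.7 to 528 in kidney (median 467.1) and 108.1 to 381.4 in brain (median 249). All liver arrays lay below all others, and the difference from kidney was -4.15 ± 0.20 (adjusted p = 1.03e-15). This probe set entered the tests through kidney and brain, and with its liver signals about as low as the offset the value depends on it, at -5.62 with an offset of 1 and -2.72 with 64. Rps6ka3, for the related kinase RSK2, was at 435 to 645 in liver, with a median of 535, at 1101 to 1953 in kidney, with a median of 1413, and at 632 to 1192 in brain, with a median of 860. Liver overlapped with brain at its top end and kidney with brain at its low end, and liver minus kidney was -1.44 (adjusted p = 8.02e-12).

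Brain was higher than both other tissues, past the threshold, for 3 of these genes. Rps6kl1, a kinase-like gene, was at 343 to 614.7 in brain, 16.6 to 104.1 in kidney and 9 to 62.4 in liver, with no overlap of brain with the others and a liver minus brain difference of -3.37 ± 0.23 (adjusted p = 5.09e-13). It entered the tests through brain, and this value too depends on the offset, at -3.96 with 1 and -2.46 with 64. Rps6kc1 had means of 42.2, 99.4 and 438 (liver minus brain -3.09, adjusted p = 9.17e-10), and Rps6ka5, for the kinase MSK1, 149, 181 and 663 (-1.99, adjusted p = 1.08e-12). Both probe sets also entered the tests through brain alone. Their values under other offsets are not given here, and the liver mean of Rps6kc1 was low enough for the offset to matter. Rps19bp1 was higher in liver than in kidney (0.60, adjusted p = 5.15e-07) and than in brain (0.46, adjusted p = 1.54e-05). Rps6kb2, an S6 kinase gene, had means of 321, 346 and 357 and passed in no tissue comparison.

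The genes that work with the ribosome are counted here beside the 38.1% of all probe sets that were higher and the 46.4% that were lower in liver than in brain. A list of translation factors and other genes, such as Npm1, Tpt1 and Gas5, held those whose transcripts also carry the oligopyrimidine tract. Of its genes 16 were tested, and 14 were higher in liver than in brain and 0 lower, with a median of 0.68. Among them Eef1a1, the factor that brings tRNA to the ribosome, had means of 32652, 25466 and 20714 in liver, kidney and brain, and Eef2, the translocation factor, 14338, 11657 and 9000. Rpsa and Fau, small-subunit genes outside the symbol rule, were both higher in liver and in kidney than in brain. Of 33 tested ribosome biogenesis genes, liver exceeded brain for 18 and brain exceeded liver for 4, with a median of 0.35, and Emg1, for a ribosomal RNA methyltransferase, gave 1.54.

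Of 14 tested genes of mTOR signalling to translation, liver exceeded brain for 5 and brain exceeded liver for 7, which is close to the shares over all probe sets. Eif4ebp1, whose protein holds back cap-dependent translation, had means of 3547, 1119 and 142 in liver, kidney and brain, and Mtor itself was highest in kidney at 2578, against 1210 in liver and 1649 in brain. Of 76 mitochondrial ribosomal protein genes, which serve a separate ribosome, 64 passed with liver above brain and 6 with brain above liver, at a median of 0.81, and 68 passed with kidney above brain and 1 the other way, against 40.9% and 38.6% of all probe sets.

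Within a tissue, the mean level of the ribosomal proteins differed between arrays. The mean log2 level of the 40 genes on an array departed from its tissue's mean by -0.24 to 0.35 in brain, -0.30 to 0.34 in kidney and -0.30 to 0.18 in liver. In kidney the 4 arrays above 0.18 were those of yellow, slightly mottled, heavily mottled and pseudoagouti mouse 1, and in brain the 3 above 0.18 were those of yellow, slightly mottled and pseudoagouti mouse 1. In liver the 2 lowest were yellow and pseudoagouti mouse 2. All 5 liver arrays of mice numbered 1 lay at 0.070 to 0.182, and those of mice numbered 2 at -0.30 to 0.089.

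The level of the family moved with the highest signal on the array. The 4 kidney arrays named above had a highest signal of 36951 to 45410 and the other 6 had 19007 to 25922, and the 3 brain arrays had 36687 to 38492 against 16761 to 26823 in the other 7. In liver the 2 lowest arrays had 34084 to 35271 and the other 8 had 39228 to 50092. A matching probe set was itself the brightest on 1 of the 30 arrays, a brain array. After quantile normalisation the 4 kidney arrays lay at -0.091 to 0.051 and the other 6 at -0.066 to 0.042, and the 3 brain arrays lay at -0.002 to 0.109 and the other 7 at -0.176 to 0.106, so that both splits overlap. In liver the 2 lowest arrays, at -0.111 to -0.110, stayed just below the other 8, at -0.097 to 0.123. The ratio of the 3 prime to the 5 prime Gapdh control was 0.707 to 0.754 in the livers of mice numbered 1 and 0.748 to 0.888 in those numbered 2, and in kidney 0.759 to 0.814 against 0.789 to 1.01.

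**Figure D3:**
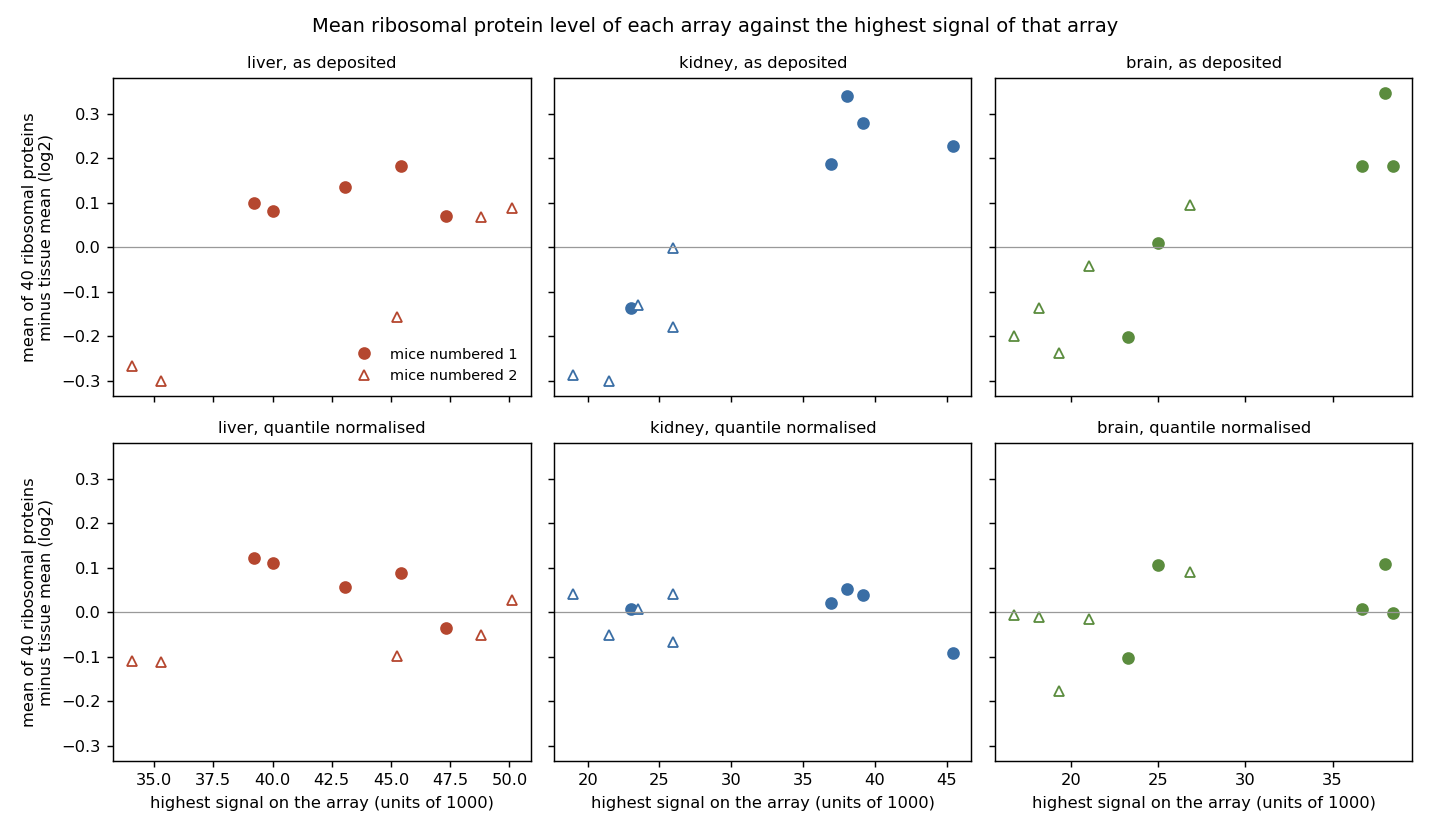
Mean log2 level of the 40 ribosomal proteins on each array minus the mean of its tissue (vertical axis) against the highest signal on that array (horizontal axis), for signals as deposited (upper row) and after quantile normalisation (lower row); filled circles are mice numbered 1 and open triangles mice numbered 2. In the upper row the 4 kidney and 3 brain arrays with the highest signal sit at 0.18 to 0.35, above all others of their tissue, and in the lower row they overlap with the others.

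Mice numbered 2 were compared with mice numbered 1, 5 against 5 in each tissue. The ribosomal protein median of number 2 minus number 1 was -0.19 in liver, -0.44 in kidney and -0.24 in brain, while over all probe sets it was 0.04, 0.05 and -0.02. In liver 8 of 40 were lower at an adjusted p under 0.05, against 5.13% of all probe sets, and 0 were higher, against 4.72%. In kidney 13 of 40 were lower (3.46% of all) and 0 higher (3.86%), and in brain 0 were lower (0.75%) and 0 higher (1.22%). At an unadjusted p under 0.05 from the same limma fits, 16, 29 and 7 of the 40 were lower in liver, kidney and brain, against 11.9%, 12.5% and 10.6% of all probe sets, and 0, 3 and 2 were higher, against 13.8%, 16.3% and 11.4%.

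Rps9, a small-subunit protein, had the smallest p in liver. Its liver signals were 12724, 14077, 14925, 13166 and 15220 in mice numbered 1 and 7959, 10407, 7124, 8741 and 7819 in mice numbered 2, each from yellow to pseudoagouti. Every mouse numbered 1 lay above every mouse numbered 2, and the difference was -0.75 ± 0.11 (adjusted p = 0.00304). The other tested probe set of Rps9, with a mean signal of 6935, gave 0.53, so the direction for this gene depends on the probe set. Rpl8, a large-subunit protein with a single matching probe set, had 11305 to 13001 against 5610 to 10464 in liver (-0.65 ± 0.15, adjusted p = 0.0185). In kidney Rpl8 had 16433, 14012, 7977, 13826 and 15552 in mice numbered 1 and 5885, 7125, 8306, 7929 and 5299 in mice numbered 2. Mottled mouse 1 lay among the mice numbered 2, the other 4 above them, and the kidney difference was -0.95 ± 0.20 (adjusted p = 0.0332). In brain it was -0.63 ± 0.25 and did not pass (adjusted p = 0.172).

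Other ribosomal proteins with large differences were Rps15 (-0.65, adjusted p = 0.0153) in liver, and Rps3a1 (-0.69, 0.0386), Rpl27 (-0.67, 0.0337) and Rpl41 (-0.65, 0.0395) in kidney. Other probe sets gave -0.13 for Rps15 in liver, -0.11 and -0.08 for Rpl27 in kidney, and -0.78 and 0.46 for Rpl41 in kidney, the last from a probe set with a mean signal of 195. Rps6kc1 gave -1.06 in liver (adjusted p = 0.0661) and -1.15 in kidney (0.0879). By the chosen probe sets, 0 of the 51 genes were higher past the threshold. Their 2 largest positive values were 0.31 for Rps6ka5 and 0.13 for Rps6 in liver. In kidney they were 0.89 for Rps6kl1 and 0.75 for Rpl27a, and for brain 0.78 for Rpl27a and 0.43 for Rpl37. Another tested probe set of Rps10, with a mean signal of 3214, gave larger values: 2.38 (liver), 1.75 (kidney) and 1.43 (brain). The chosen Rps10 probe set gave -0.29, -0.39 and -0.13, and the remaining tested ones lay between -0.58 and 0.20. The direction for this gene thus depends on the probe set. Among the marker genes, Kap (-0.77, adjusted p = 0.0432) and Umod (-0.60, 0.0474) were lower and Syt1 (0.82, 0.0396) higher in the kidney of mice numbered 2, and Kl (1.24, 0.0421) was higher in their liver. Syt1 is a brain marker and Kl a choroid plexus marker, each taken here outside that tissue. The mean signal of the brain list ran from 49.7 to 106 over the kidney arrays, and that of the choroid plexus list from 55.7 to 208 over the liver arrays. None of the tested blood, lymphoid and adipose markers passed in any tissue. The part of these differences in those of the ribosomal proteins was not tested.

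These counts hung on single mice. The kidney count of 13 was 0 without yellow mouse 1, slightly mottled mouse 1, heavily mottled mouse 1, pseudoagouti mouse 1, yellow mouse 2, slightly mottled mouse 2 or pseudoagouti mouse 2, each in turn, 5 without heavily mottled mouse 2 and 29 without mottled mouse 1. The liver count of 8 was 4 without slightly mottled mouse 1, 3 without mottled mouse 1, 5 without heavily mottled mouse 1, 5 without pseudoagouti mouse 1 and 4 without mottled mouse 2. With coat class as a block, which pairs mice 1 and 2 of a class, 3 were lower and 1 higher in kidney. After quantile normalisation 1 was lower in kidney, where the median became 0.0039, and 9 were lower in liver. Without the filter on dim probe sets 5 were lower in liver and 0 in kidney. With each array's highest signal as a covariate the counts were 13 in liver and 0 in kidney, and with the Gapdh ratio as a covariate 0 in both.

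The study looked for expression that differs between mice across tissues. By limma's F-test over the 10 mice with tissue as a covariate, 8 of the 40 ribosomal proteins passed: Rpl8 (adjusted p = 0.00419), Rps3a1 (0.017), Rps19 (0.0231), Rplp2 (0.025), Rpl27 (0.0281), Rpl4 (0.0288), Rps9 (0.0291) and Rps15 (0.0352). With Rps4l (0.0234), 9 of the 51 tested genes passed (17.6%), while 6.8% of all tested probe sets did. Rpl35 came next at 0.053. Some of these calls depend on the probe set: other tested probe sets gave adjusted p-values of 0.478 and 0.284 for Rpl27, 0.61 for Rps9 and 0.167 for Rps15, while Rpl8, Rps3a1, Rps19, Rplp2, Rpl4 and Rps4l had no other matching probe set. The mean of Rpl8 over the 3 tissues differed 2.47-fold between pseudoagouti mouse 1, the highest, and pseudoagouti mouse 2, the lowest.

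With the mouse number removed within each tissue, 0 of 51 passed (0.417% of all probe sets did), and 4 had an unadjusted p under 0.05 in that limma fit (15.7% of all did), where Rps4l had an adjusted p of 0.11 and Rpl8 0.243. The count of 8 was 3 without yellow mouse 1, 3 without slightly mottled mouse 1, 2 without pseudoagouti mouse 1, 5 without yellow mouse 2, 5 without mottled mouse 2 and 2 without pseudoagouti mouse 2. With the highest signal or the Gapdh ratio as a covariate it was 0.

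The variation ratio R, the spread between mice divided by the spread between tissues, exceeded 1.5 for 0 of 51 genes, against 0.662% of all probe sets; it carries no test, and the series names the threshold without a formula. The highest values of the 56 genes were those of Rps6kb2 (1.27), Rpl39l (1.11), Rpl39 (1.08), Rpl3l (1.08) and Rps16 (1.03). Of these, Rpl39l, Rpl3l and Rps16 did not reach the filter in any tissue, so their R comes from signals near background. The ribosomal protein median was 0.57 and that of all tested probe sets 0.42.

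Coat class gave no call. The slope per step from yellow to pseudoagouti passed at an adjusted p under 0.05 for 0 of 51 genes on the mean of the 3 tissues (0.00444% of all probe sets), in brain (0%), in kidney (0.00444%) and in liver (0%). The only gene with an unadjusted p under 0.05 in these limma fits was Rps27 in liver, with a slope of 0.16 ± 0.070 (SE). Its unadjusted p-value in limma's fit over the 10 mice was 0.0357, and 1 after adjustment. On the tissue mean the smallest unadjusted p-values of the limma fit were 0.0663 for Rps6kl1, 0.104 for Rpl7l1 and 0.13 for Rps25. Within tissues the next smallest were those of Rpl7l1 and Rps25 in liver, Rps6kl1, Rpl12 and Rps25 in kidney, and Rpl7l1, Rps6ka5 and Rps6kl1 in brain.

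Over the 10 mice of a tissue, pairs of ribosomal proteins were positively correlated. The median Pearson r over 780 pairs was 0.66 in liver, 0.86 in kidney and 0.72 in brain, and 82.3%, 77.6% and 79.1% of pairs lay above 0. Over all pairs of 12089 tested genes the medians were 0.015, 0.013 and 0.008. Over the 76 mitochondrial ribosomal proteins they were 0.22, 0.50 and 0.29, and over the 33 biogenesis genes 0.23, 0.05 and 0.02. All genes of an array share its library, scaling and brightness, so these values are a description and carry no p.

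Scaling removed much of this. After quantile normalisation the median r was 0.33 in liver, 0.04 in kidney and 0.21 in brain, and with the highest signal regressed out, chosen after the data were seen, 0.46 in kidney and 0.40 in brain. In liver, regressing it out moved the median r by less than 0.26, the SD over genes of their mean r. Probe sets also differed: 29 of the 33 brighter genes, and 1 of the 7 dimmer tested ones, were represented by a probe set whose suffix marks probes shared among transcripts or related sequences. Among the 13 ribosomal proteins left when such probe sets were excluded, the median r was -0.05 in liver, -0.05 in kidney and 0.06 in brain. These 13 include the dim probe sets of Rpl12, Rpl27a, Rpl39, Rps25, Rps27 and Rps6. They also include dim ones of Rps24 (mean signal 234) and Rps3 (243). The parts of shared probes and of low signal in these values were not tested. Among the brighter genes, Rpl19, Rpl27, Rplp0 and Rps15 were represented by a probe set without such a suffix. Their r with the mean of the other ribosomal proteins was above 0.5 in every tissue. For Rpl37, the dimmer gene with such a suffix, it was at most 0.5 in every tissue.

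Each gene was also set against the mean of the other 39. The 33 brighter genes had a median r of 0.88 in liver, 0.96 in kidney and 0.92 in brain, and the 7 dimmer ones -0.05, -0.54 and 0.02. The highest values were those of Rps3a1 (0.98), Rps7 (0.98), Rps26 (0.96) and Rpl27 (0.96) in liver, of Rps7, Rpl22, Rpl38 and Rpl7a (0.98 to 0.99) in kidney, and of Rps4x, Rps28, Rpl38 and Rps29 (0.97 to 0.98) in brain. Among the brighter genes the exceptions were Rps18, at 0.006, and Rps3, at 0.47, both in brain. The lowest of all 56 genes were Rps6ka5 (-0.60), Rpl3l (-0.38), Rpl39 (-0.32) and Rps6kb2 (-0.31) in liver, Rpl39l (-0.83), Rpl3l (-0.79), Rps6ka5 (-0.78) and Rps6kl1 (-0.70) in kidney, and Rpl27a (-0.65), Rpl37 (-0.63), Rpl12 (-0.40) and Rps6ka5 (-0.34) in brain. Rpl39l and Rpl3l did not reach the filter in any tissue, so their r comes from signals near background. The kidney signals of Rps6kl1 and the liver and kidney means of Rps6ka5 also lay below the filter.

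**Figure D4:**
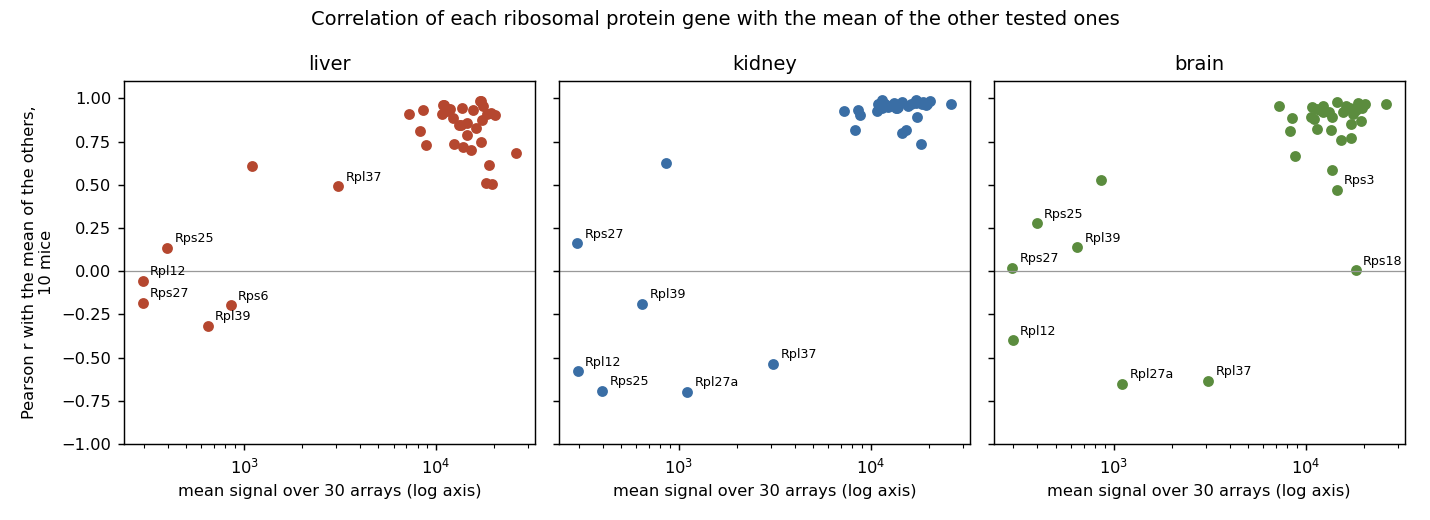
Pearson r of each of the 40 tested ribosomal proteins with the mean of the other 39 over 10 mice (vertical axis) against its mean signal over 30 arrays (horizontal log axis), in liver, kidney and brain; genes with r at or below 0.5 are named. Genes with a mean signal above 5000 lie at r above 0.5 apart from Rps18 and Rps3 in brain, and the dimmer ones scatter from -0.70 to 0.62.

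By the probe sets chosen here, Rps4l was the only paralog that passed the mouse F-test. For Rpl7l1 the outcome depended on the probe set. In limma's F-test its chosen probe set, with a mean signal of 1255, had an adjusted p of 0.173. Another with a mean of 1189 passed at 0.00887, and one with a mean of 279 did not (0.413). From yellow to pseudoagouti the liver signals of Rps4l were 1009, 1361, 960, 1037 and 846 in mice numbered 1, and 596, 939, 511, 296 and 633 in mice numbered 2. In each of the 5 coat classes mouse 1 was above mouse 2, and as groups the numbers overlapped only through slightly mottled mouse 2. In kidney they were 781, 670, 390, 507 and 820 in mice numbered 1, and 539, 724, 354, 383 and 859 in mice numbered 2, with mouse 1 higher in 3 of 5 classes. In brain they were 498, 523, 102, 332 and 416, and 300.4, 249, 226, 179.7 and 358, with mouse 1 higher in 4 of 5. The lowest brain value belonged to mottled mouse 1, and as groups the numbers overlapped in kidney and in brain.

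The SD of Rps4l over 10 mice was 0.62 in liver, 0.47 in kidney and 0.67 in brain on the log2 scale, and its highest signal was 4.60, 2.43 and 5.16 times its lowest. For Rps4x the SDs were 0.19, 0.39 and 0.27 and the ratios 1.58, 1.95 and 1.74. The median SD of the ribosomal proteins was 0.23, 0.32 and 0.28. Over 10 mice, r of Rps4l with Rps4x was 0.25 in liver, 0.20 in kidney and 0.67 in brain, and with the family mean 0.40, 0.23 and 0.72.

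**Figure D5:**
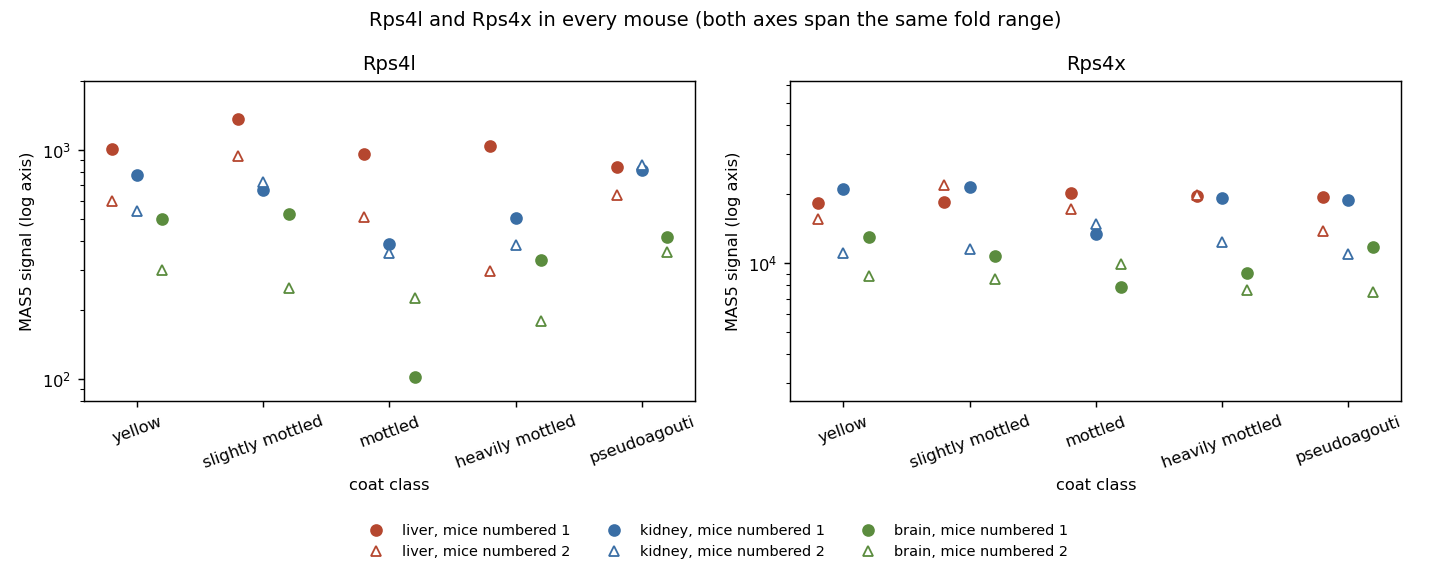
MAS5 signal of Rps4l (left) and Rps4x (right) in every mouse by coat class, on log axes that span the same fold range; colours are tissues, filled circles mice numbered 1 and open triangles mice numbered 2. Rps4l spreads over 4.60-fold in liver and 5.16-fold in brain, and Rps4x over 1.58-fold and 1.74-fold.

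Over the tissue means, Rps4l differed 2.75-fold between slightly mottled mouse 1, the highest, and heavily mottled mouse 2, the lowest. Its mouse F-test (adjusted p = 0.0234) no longer passed without yellow mouse 1 (0.0528), slightly mottled mouse 1 (0.054), mottled mouse 2 (0.0624) or heavily mottled mouse 2 (0.068), nor with the number as a block (0.211), with the highest signal as a covariate (0.0958) or on liver and brain alone (0.463). The liver difference between the numbers was -0.87 ± 0.24 (adjusted p = 0.042). It stayed past the threshold in 1 of 10 fits that each left out a mouse, the fit without slightly mottled mouse 2, and in the other 9 the adjusted p was 0.0506 to 0.098. With the Gapdh ratio as a covariate it was -0.61 (adjusted p = 0.508). Rps4l was measured by a single probe set, so no second probe set bears on these values. With each tissue's mean removed, the genes most like it over the 30 arrays were Tax1bp3 (r = 0.80), Abcf3 (0.79) and Tbcb (0.79).

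Across tissues, the difference between numbers was itself tested by the interaction of number and tissue, which 1 of 40 ribosomal proteins passed, against 4.94% of all probe sets. This was Rpl37, with 3301 to 5780 in mice numbered 1 and 3345 to 4356 in mice numbered 2 in liver, 1818 to 2648 and 2593 to 3372 in kidney, and 1574 to 2526 and 2312 to 2918 in brain. Mice numbered 1 thus reached higher in liver and lower in kidney and brain, with overlap in each tissue (adjusted p = 0.0476). The call was lost in 9 of 10 fits that left out a mouse, all but the fit without heavily mottled mouse 1, with an adjusted p of 0.0613 to 0.127.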

How the data were processed

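The deposited unit is intensity on a linear scale, made by the authors with MAS5 (version and detection calls not given in the sources used here) from 6 ug of total RNA per array, per the labels. Their trimmed mean, without 2% at each end, was 500 on all 30 arrays. The base-2 logarithm was taken after adding 16, with no further scaling. The 45101 probe sets hold 64 controls, which were set aside, and of the rest 34945 had 1 symbol, 932 several and 9160 none in the platform annotation. Fits used limma 3.58.1 under R 4.3.3 (trended eBayes, Benjamini-Hochberg over 22519 probe sets whose highest tissue mean reached 242) and tested on simulated data. Tissue fits held mouse as a fixed block, since the 3 tissues of a mouse are paired by the labels. The mouse number did not pair all coat classes: same-numbered mice correlated at 0.129 or more in liver, but at as little as 0.010 in kidney and -0.009 in brain. No arrays held identical values. The precision of all comparisons is limited by 10 arrays per tissue.

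Named genes were the 8 strongest and 5 weakest members, the 6 per direction with the largest tissue differences, the 10 with the smallest mouse p, the 5 highest in R, 3 per coat fit by smallest p, the 5 per direction with the largest number differences, the 4 highest and 4 lowest in r per tissue, all paralogs and all genes that encode no ribosomal protein, the 3 genes most like Rps4l, and up to 4 of each other list. Eif4ebp1 was chosen after its values were seen. Members and lists were chosen with earlier results of these data known. The alternatives were other offsets, filters, scalings, probe sets, blocks, covariates, tissue pairs and each mouse left out. Centring on the ribosomal proteins, the highest signal regressed out of correlations and a separate count of the brighter genes were added after the data were seen.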

Additional observations from a re-analysis of the deposited data

Results flagged for a closer look

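In 7 of 153 groups of 10 arrays, each a tested gene in a tissue, the highest or lowest array stood apart on log2 values, with a gap to its nearest neighbour that was larger, as a share of the whole range, than Dixon's critical value for 10 values. Chance gives about 1 in 20 such groups. In liver the lowest array was apart for Rpl12 (gap 0.526 of the range; slightly mottled mouse 2, signal 192.2, next 291.2), Rpl27a (0.609; pseudoagouti mouse 2, 824.7, next 1529), Rpl39 (0.489; slightly mottled mouse 2, 310.1, next 533.1) and Rps6 (0.499; heavily mottled mouse 1, 646.7, next 816.4). In kidney the lowest array was apart for Rpl37 (0.471; heavily mottled mouse 1, 1818, next 2432) and the highest for Rps6 (0.48; yellow mouse 1, 1483, next 1223). In brain the lowest array was apart for Rps27l (0.585; mottled mouse 1, 654.3, next 1143). Of these 7, 6 were among the dimmer probe sets of ribosomal proteins.

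The difference between mice numbered 2 and 1 itself differed between tissues for Rpl37, by limma's interaction test (adjusted p = 0.0476).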

How the results depend on the processing

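Of 1096 values recomputed under 34 alternative settings, 931 were rated as unchanged and 165 were not. Values of single genes had to keep their direction and side of the threshold. Counts only had to stay near the main count. For example, 20 to 27 higher in liver than in kidney with a mouse left out were rated as unchanged from 25. Medians had to move by less than a spread, which for the median pair r was an SD over genes and not over replicates. Where a value changed, the cause was not tested unless the setting itself tests fewer genes or samples. Counts below are of ribosomal proteins.

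Under quantile normalisation over all arrays, liver minus kidney gave 5 higher and 25 lower with a median of -0.17, liver minus brain 4 lower, 1 higher by log2 1 or more and a median of 0.26, and kidney minus brain 0 lower, 3 higher by that much and a median of 0.34. The number comparison gave 1 lower in kidney with a median of 0.0039 and 2 interaction calls, and the median pair r was 0.33, 0.040 and 0.21 in liver, kidney and brain. Quantile normalisation within tissues gave 1 lower in kidney, a median of 0.0034, 3 interaction calls and r of 0.33, 0.045 and 0.21. With each array centred on its median, 0 were lower in liver than in kidney or brain, 31 were higher in liver than in brain by log2 1 or more with a median of 1.27, and 1 was lower in kidney than in brain.

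With probe sets without a shared-sequence suffix (13 tested), liver minus kidney gave 3 higher and 1 lower by log2 1 or more, liver minus brain 8 higher, 3 by that much and a median of 0.63, and kidney minus brain 7 higher. The mouse effect called 2, the number comparison 2 lower in liver, 3 lower and 1 higher in kidney with a median of -0.018, and the interaction 0, with median r of -0.050, -0.054 and 0.059. With all 78 tested probe sets, liver minus kidney gave 44 higher and 7 lower (2 and 1 by log2 1 or more), liver minus brain 70 and 2 (31 higher by that much) and kidney minus brain 67 and 4 (9). The mouse effect then called 13, and the number comparison 15 lower and 2 higher in liver and 1 higher in kidney.

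The offset of 1 gave 0 interaction calls, and the offset of 64 gave 0 higher in liver than in kidney by log2 1 or more. Without the filter the number comparison gave 5 lower in liver and 0 in kidney, and 0 interaction calls. With the replicate number as a block, over all tissues or within each, the mouse effect called 0. It also called 0 with the highest signal or the Gapdh ratio as a covariate, 2 in liver with kidney and 0 in liver with brain. With coat class as a block, which pairs the numbers, 3 were lower and 1 higher in kidney. With the highest signal as a covariate 13 were lower in liver and 0 in kidney, and the medians were -0.047 in kidney and 0.16 in brain. With the Gapdh ratio 0 were lower in liver and in kidney. Regressing out the highest signal left r at 0.46 in kidney and 0.40 in brain. The block changed no call of coat slopes.

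Leaving out each mouse in turn gave ranges of 0 to 1 higher in liver than in kidney by log2 1 or more, 0 to 2 lower in kidney than in brain, 2 to 11 for the mouse effect, 3 to 9 lower in liver and 0 to 29 lower and 0 to 2 higher in kidney between numbers, 0 to 3 lower and 0 to 2 higher in brain, and 0 to 2 for the interaction.

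Of 365 values of single genes, 316 kept their direction and side of the threshold. Background brightness limits Rps16, Rpl14, Rpl3l, Rpl39l and Rps15a-ps6, which were not tested, and no detection calls were used.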
